A study of Homo sapiens with 6 samples.

Results

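The HOX genes encode homeodomain transcription factors that lie in 4 clusters in the human genome, HOXA, HOXB, HOXC and HOXD, together with several antisense and intergenic RNA genes. The 58 genes described here are all rows of the expression table whose GENCODE 29 symbol starts with HOXA, HOXB, HOXC or HOXD, plus HOTAIR, HOTTIP, HOTAIRM1, HAGLR and HAGLROS, out of 65198 rows in all. Of these genes, 39 were protein-coding and 19 non-coding, with 17 in HOXA, 14 in HOXB, 15 in HOXC and 12 in HOXD. No filter on expression was used to choose them. RNA was sequenced from derivatives of the breast cancer line MDA-MB-231, a human line of the basal-like type. One derivative, shHOTAIR, expressed a short hairpin RNA directed at HOTAIR from a tetracycline-inducible construct. The other, shCtrl, had a hairpin of scrambled sequence in the same kind of construct. Doxycycline (1 µg/ml, 96 h) was given to both, and there were 3 biological repeats of each, 6 libraries in all. Since each group is a single derivative by the labels, p-values reflect the spread among repeats of that derivative and not among independent derivatives.

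Within a cluster the HOX genes are numbered from 1 to 13 by sequence relationship, and genes with the same number in different clusters are paralogues. In the embryo, genes with low numbers, at the 3′ end of a cluster, are active earlier and nearer the head, and genes with high numbers later and nearer the tail, and cells derived from a body region keep part of this pattern. HOX proteins bind DNA with partners of the PBX and MEIS families, trithorax proteins keep the clusters active, and Polycomb proteins keep them silent. HOTAIR is an RNA made from the HOXC cluster, and it has been reported to act on the HOXD cluster through Polycomb. The comparison of shHOTAIR with shCtrl, read cluster by cluster, shows how the HOX genes themselves differed when HOTAIR was targeted.

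Expression was measured as FPKM, by its usual definition fragments per kilobase of transcript scaled to the mapped fragments of a library. Levels can therefore be set side by side between genes. Between 28357 and 29392 genes were above 0 FPKM in the shHOTAIR libraries, and between 27416 and 28036 in the shCtrl libraries. The number of fragments per library is not known. Relative to shCtrl 1, the spacing of low values put the FPKM worth of 1 fragment at 0.664, 0.595 and 0.717 in shHOTAIR 1, 2 and 3. In shCtrl 1, 2 and 3 it was 1, 0.812 and 0.839. These values put all shHOTAIR libraries deeper than all shCtrl libraries only if FPKM was scaled to the total fragments of each library, which was not checked. The summed FPKM of all genes was 1620978 to 1820768 in shHOTAIR and 2224150 to 2569505 in shCtrl. Of 9 markers of breast epithelial or basal-like cells, KRT18, KRT8, EGFR, CD44 and VIM were expressed in every library. KRT5 was listed at 0, KRT14 was above 0 in shHOTAIR 1 only (0.0916 FPKM), TP63 did not exceed 0.280 FPKM and EPCAM stayed below 0.1 FPKM. The 9 summed to 1351 to 1582 FPKM in shHOTAIR and 1734 to 1832 FPKM in shCtrl. VIM alone was at 361 to 411 FPKM in shHOTAIR and 906 to 977 FPKM in shCtrl. Of the 5 tested, KRT8, KRT18 and EGFR rose and VIM fell (log2 change -1.27), so the lower sum in shHOTAIR was not shared by all 9 markers. The KRT8 call was lost without shHOTAIR 2, shCtrl 2 or shCtrl 3 (limma adjusted p up to 0.0527). Markers of other cell types were low. The 7 fibroblast markers summed to 4.48 to 5.95 FPKM in shHOTAIR and 2.72 to 3.43 FPKM in shCtrl, and COL1A1 among them rose (log2 change 0.96). The 6 leukocyte markers summed to 0.406 to 0.829 FPKM in shHOTAIR and 0.856 to 2.02 FPKM in shCtrl. The 5 endothelial markers summed to 2.23 to 3.00 FPKM in shHOTAIR and 1.59 to 1.97 FPKM in shCtrl. Their part in the HOX results was not tested.

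HOTAIR itself (ENSG00000228630, chromosome 12, 53962308 to 53974956 on GRCh38, minus strand) was at the limit of detection. It was listed at 0, 0 and 0.0113 FPKM in shHOTAIR 1, 2 and 3, against 0, 0.0128 and 0.0132 FPKM in shCtrl 1, 2 and 3. The groups overlapped. Each value above 0 came to 0.0157 in relative units proportional to fragment number, so these libraries held the same number of HOTAIR fragments. That number was taken to be 1 and was not measured, since the unit was set from HOTAIR itself. On this assumption 3 fragments would have given 0.0281 to 0.0472 FPKM. With values this low, a difference in the target was not detectable at this depth.

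Most HOX genes of these cells were silent or nearly so. Of the 58 genes, 17 were listed at 0 in all 6 libraries, another 32 were above 0 somewhere but had a mean below 1 FPKM, and 9 had a mean of at least 1 FPKM. These 9 were HAGLR, HOXB9, HOXD4, HOXC6, HOXB3, HOXB7, HOXC5, HOXD3 and HOXB8, in order of mean level, and they were the members tested. HAGLR and HOXB9 stood far above the rest, at 32.2% and 30.1% of the summed mean FPKM of all 58 genes, and HOXD4, the next, made up 5.94%. All 9 were at or above 1 FPKM in each of the 6 libraries, so none met the minimum through 1 group alone.

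**Figure D1:**
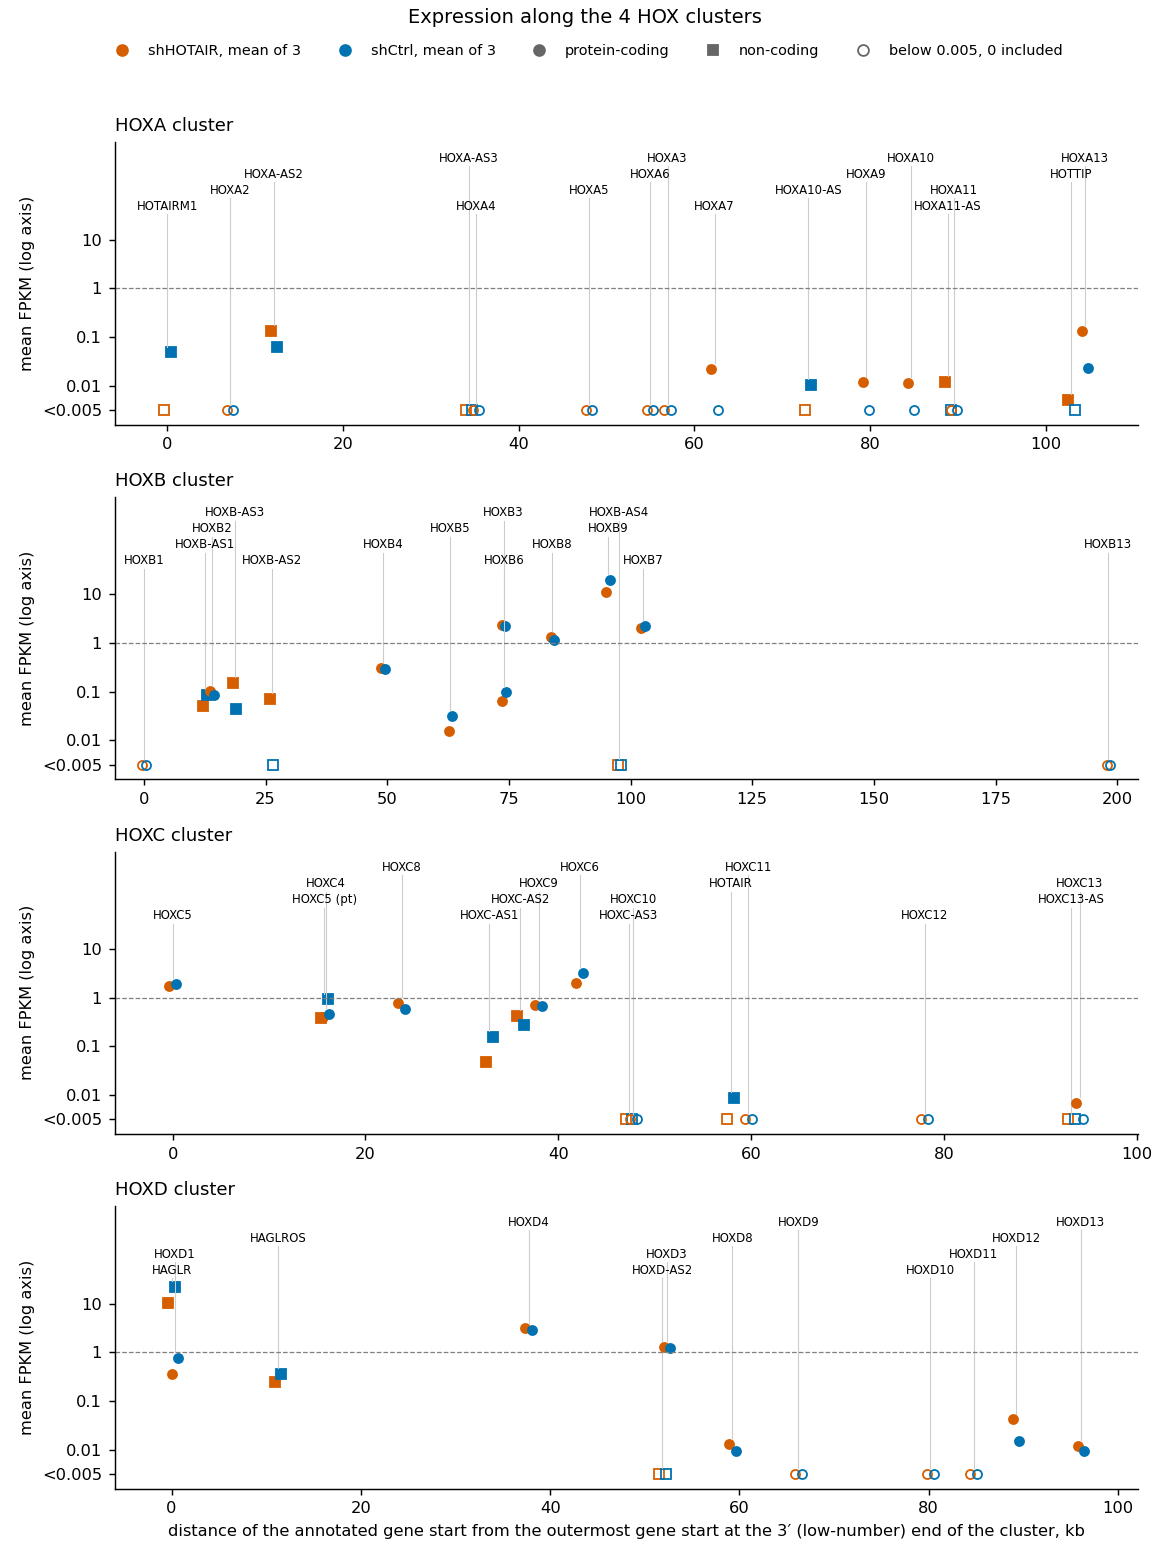
Mean FPKM (log axis) of 57 of the 58 genes in shHOTAIR (orange) and shCtrl (blue), 3 libraries each, against the distance in kb of its annotated gene start from the outermost gene start at the 3′ end of its cluster. Circles are protein-coding and squares non-coding genes, open symbols are means below 0.005 FPKM, and the dashed line marks 1 FPKM; "(pt)" is the processed transcript also named HOXC5. The genes at 1 FPKM or more lie in the stretch of HOXB3, HOXB8, HOXB9 and HOXB7 in HOXB, between HOXC5 and HOXC6 in HOXC and at the low-number end of HOXD, while HOXA holds no gene at 1 FPKM.

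By paralogue group, all protein-coding members at 1 FPKM or more belonged to groups 3 to 9. Group 9 had the highest sum, 11.6 FPKM in shHOTAIR and 20.5 FPKM in shCtrl, nearly all of it HOXB9. Groups 10, 11 and 12 summed to no more than 0.0421 FPKM in either derivative, and group 11 was listed at 0 throughout. Group 13 summed to 0.153 FPKM in shHOTAIR and 0.0327 FPKM in shCtrl. In group 2 HOXB2 alone was above 0, at a level between 0.0257 and 0.188 FPKM over all libraries.

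Of the 9 members tested, HOXB9 and HAGLR fell in shHOTAIR, 0 rose and 7 did not pass. The limma threshold, an adjusted p of 0.05, was met by 23.8% of the 15934 genes tested (11.5% rose and 12.4% fell), so 2 of 9 is close to the share of all genes. The median log2 change of the 9 was -0.07, against -0.03 for all genes tested. The groups did not overlap in the same 2 members, both lower, where 43% of all genes tested did not overlap, 23.2% lying lower in shHOTAIR and 19.9% higher. In bulk samples fewer cells with an RNA and less of it per cell cannot be told apart.

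**Figure D2:**
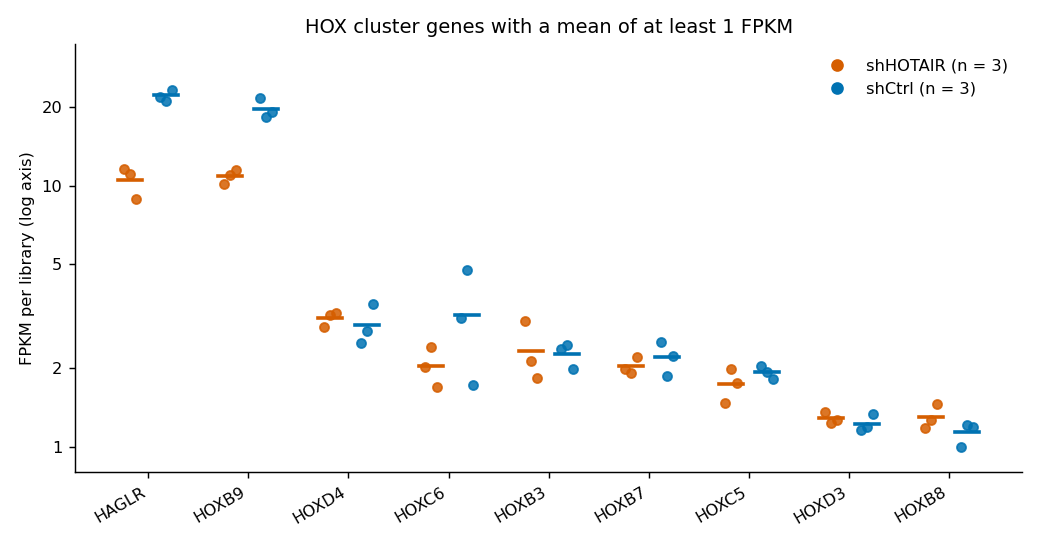
FPKM of the 9 HOX cluster genes that averaged 1 FPKM or more (log axis), with 1 point per library and a bar at the group mean, shHOTAIR in orange and shCtrl in blue, n = 3 each. HAGLR and HOXB9 lie between 8.88 and 11.6 FPKM in shHOTAIR and between 18.4 and 23.4 FPKM in shCtrl, and the groups of the other 7 genes overlap.

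In the HOXB cluster (chromosome 17, 48528526 to 48729178), HOXB9 carried most of the signal. HOXB9 is a paralogue of the posterior trunk genes of group 9 and has been studied in breast cancer for its links to invasion. It lies at 48621159 to 48626356 on the minus strand. HOXB9 was at 10.2, 11.0 and 11.5 FPKM in shHOTAIR 1, 2 and 3, against 21.7, 18.4 and 19.2 FPKM in shCtrl 1, 2 and 3. Every shHOTAIR library was below every shCtrl library. The means were 10.9 ± 0.667 FPKM in shHOTAIR and 19.8 ± 1.74 FPKM in shCtrl (SD, n = 3 each), so the shHOTAIR level was 55.1% of the shCtrl level (log2 change -0.80, SE 0.0826, limma adjusted p = 0.00254). HOXB9 lies within the annotated span of HOXB7 and shares no exon base with it.

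The other active HOXB genes did not pass the test. HOXB8, a paralogue of group 8 whose annotated start lies 11.42 kb from that of HOXB9, was at 1.18, 1.27 and 1.46 FPKM in shHOTAIR and 1.00, 1.22 and 1.20 FPKM in shCtrl (log2 change 0.11, 95% interval -0.25 to 0.47). HOXB7, a group 7 gene, was at 1.99, 1.92 and 2.21 FPKM in shHOTAIR and 2.51, 1.87 and 2.23 FPKM in shCtrl (log2 change -0.07, interval -0.39 to 0.24). HOXB3, a group 3 gene of the hindbrain, was at 3.03, 2.13 and 1.83 FPKM in shHOTAIR and 2.36, 2.46 and 1.99 FPKM in shCtrl (log2 change 0.01, interval -0.40 to 0.43). In all 3 genes the groups overlapped, and each interval lies above the log2 change of HOXB9. Within a library, HOXB9 stood at 7.88 to 8.65 times the FPKM of HOXB8 in shHOTAIR and at 15.1 to 21.7 times in shCtrl. Its ratio to HOXB7 was 5.13 to 5.73 in shHOTAIR and 8.60 to 9.84 in shCtrl. For both ratios the exact two-sided permutation p was 0.1, the smallest that 3 against 3 can give.

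The rest of HOXB was weak. HOXB4 was between 0.177 and 0.449 FPKM over all libraries, and HOXB2, HOXB5 and HOXB6 did not exceed 0.191 FPKM. HOXB1, HOXB13 and HOXB-AS4 were listed at 0 except for 0.00637 FPKM of HOXB13 in shHOTAIR 2. Of the antisense genes, HOXB-AS1 reached 0.201 FPKM at most with overlapping groups, and HOXB-AS2 was above 0 only in shHOTAIR, at up to 0.117 FPKM. HOXB-AS3 was at 0.346, 0 and 0.115 FPKM in shHOTAIR, against 0, 0 and 0.135 FPKM in shCtrl. The 14 genes of the cluster summed to 17.3 ± 0.441 FPKM in shHOTAIR and 26.0 ± 1.95 FPKM in shCtrl (SD, n = 3 each), a ratio of 0.666 that was not tested.

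In the HOXD cluster (chromosome 2, 176092891 to 176190907), the changes lay at its 3′ end. HAGLR, an antisense RNA gene also called HOXD-AS1, was the most abundant of all 58 genes in shCtrl. It starts within HOXD1 and runs on the minus strand to within the annotated span of HOXD3 (176164051 to 176188958). HAGLR was at 11.6, 11.1 and 8.88 FPKM in shHOTAIR 1, 2 and 3, against 22.0, 21.2 and 23.4 FPKM in shCtrl 1, 2 and 3. The groups were well apart. The means were 10.5 ± 1.44 FPKM in shHOTAIR and 22.2 ± 1.10 FPKM in shCtrl (SD, n = 3 each), so shHOTAIR held 47.3% of the shCtrl level (log2 change -1.02, SE 0.106, limma adjusted p = 0.00263). HOXD1, the protein-coding gene on the other strand, whose annotated start lies 0.38 kb from that of HAGLR, was at 0.419, 0.270 and 0.410 FPKM in shHOTAIR and 1.10, 0.624 and 0.629 FPKM in shCtrl. These groups did not overlap either, but the mean of HOXD1 was below 1 FPKM. When all 36141 genes with a value above 0 were fitted together, of which 8.89% passed, its log2 change was -0.38 on the log2(FPKM + 1) scale, which compresses such low values (limma adjusted p = 0.182), and the exact two-sided permutation p was 0.1, the smallest possible. With a pseudocount of 0.1 the log2 change of HOXD1 was -0.90 (limma adjusted p = 0.198), and its shHOTAIR mean was 46.6% of its shCtrl mean. The ratio of HAGLR to HOXD1 was 21.7 to 41.1 in shHOTAIR and 19.9 to 37.3 in shCtrl (exact permutation p = 1).

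The annotated starts of HAGLR and HOXD1 lie close together, so overlapping promoter windows of the pair are shown. Promoter windows of 250 bases before to 50 bases after a gene start came from a set of RefSeq windows on GRCh38.p14. The set used here held windows for 31 of the 57 symbols, and HOXB9 was not among them. A HAGLR window (chromosome 2, 176188523 to 176188822, minus strand) and the HOXD1 window (176188418 to 176188717, plus strand) share 195 bases. They are printed with the HOXD4 window (176151300 to 176151599, plus strand), whose gene did not pass the test. Capitals mark CCAAT, read on either strand as CCAAT or ATTGG.
HAGLR: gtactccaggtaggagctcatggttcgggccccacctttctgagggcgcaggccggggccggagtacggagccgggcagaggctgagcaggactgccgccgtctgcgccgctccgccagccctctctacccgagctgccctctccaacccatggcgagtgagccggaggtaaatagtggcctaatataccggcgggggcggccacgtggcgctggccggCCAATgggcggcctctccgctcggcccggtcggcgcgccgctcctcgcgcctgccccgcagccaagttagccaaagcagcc
HOXD1: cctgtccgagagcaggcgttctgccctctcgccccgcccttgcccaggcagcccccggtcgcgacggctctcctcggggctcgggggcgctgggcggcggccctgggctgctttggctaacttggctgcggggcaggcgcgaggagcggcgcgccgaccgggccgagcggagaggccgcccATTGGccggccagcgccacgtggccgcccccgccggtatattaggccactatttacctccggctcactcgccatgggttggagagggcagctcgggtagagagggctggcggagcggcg
HOXD4: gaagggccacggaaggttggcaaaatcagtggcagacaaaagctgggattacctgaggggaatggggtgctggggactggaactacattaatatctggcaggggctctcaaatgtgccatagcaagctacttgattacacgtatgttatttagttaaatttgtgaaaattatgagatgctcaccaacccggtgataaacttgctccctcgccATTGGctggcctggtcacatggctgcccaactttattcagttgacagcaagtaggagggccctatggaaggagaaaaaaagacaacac
The CCAAT of HAGLR and the ATTGG of HOXD1 are the same site, 176188599 to 176188603, read from opposite strands. CCAAT was found on either strand in 34.6% of all 35116 promoter windows, so it does not set this pair apart, and HOXD4 holds 1 as well. TATAAA, searched on both strands and present in 11.5% of all windows, was in none of the 3. The HAGLR and HOXD1 windows hold 31 and 36 CpG dinucleotides, where the median of all windows is 14 and the HOXD4 window holds 4. High CpG counts are common, 41.2% of all windows holding at least 20. The set holds 3 more HAGLR windows, 1 of which shares 102 bases with that of HOXD1 and the others 0. The GENCODE start of HAGLR, 176188958, lies in one of these others, which is not printed.

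Another RNA at the same end was lower too. AC009336.3 (176189919 to 176192538, minus strand), a GENCODE gene of the class TEC that lies across the 3′ end of HOXD1, is not a member by its symbol and was looked at after its values were seen. It was at 1.92, 1.33 and 1.25 FPKM in shHOTAIR and 3.32, 3.33 and 3.15 FPKM in shCtrl (log2 change -0.78, limma adjusted p = 0.0129). It covers 50.1% of the exon bases of HOXD1 on the opposite strand, and HAGLR covers another 8%. The sources used here do not state a strand setting, so reads of HOXD1 cannot be fully told apart from those of both genes.

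Deeper in the cluster no gene passed the test. HOXD4, a group 4 gene whose start lies 37.36 kb from that of HOXD1, was at 2.87, 3.21 and 3.26 FPKM in shHOTAIR and 2.50, 2.78 and 3.51 FPKM in shCtrl (log2 change 0.07, 95% interval -0.24 to 0.39). HOXD3, of group 3, was at 1.36, 1.23 and 1.27 FPKM in shHOTAIR and 1.16, 1.19 and 1.33 FPKM in shCtrl (log2 change 0.04, interval -0.30 to 0.38). Both sets of libraries overlapped, and the intervals lie above the log2 change of HAGLR. Within a library HAGLR was 2.72 to 4.03 times HOXD4 in shHOTAIR and 6.67 to 8.81 times in shCtrl, with an exact two-sided permutation p of 0.1, the smallest possible. The read-through gene AC009336.2 covers 80.5% of the exon bases of HOXD4 and 62.2% of those of HOXD3, so their counts could be split, though AC009336.2 itself was only at 0.115 to 0.409 FPKM. HAGLROS, an RNA gene that overlaps HAGLR on the other strand, was at 0.329, 0.317 and 0.109 FPKM in shHOTAIR and 0.343, 0.247 and 0.479 FPKM in shCtrl, with overlapping groups. HAGLR covers 36.8% of the exon bases of HAGLROS, so without a known strand setting their reads cannot be fully told apart. From HOXD8 to HOXD13 no gene exceeded 0.0712 FPKM in any library, and HOXD9, HOXD11 and HOXD-AS2 were listed at 0 throughout.

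The 12 HOXD genes summed to 15.6 ± 1.44 FPKM in shHOTAIR and 27.6 ± 1.72 FPKM in shCtrl, while the 9 protein-coding ones summed to 4.84 ± 0.129 FPKM in shHOTAIR and 4.98 ± 0.511 FPKM in shCtrl (SD, n = 3 each). Nearly all of the gap between the sums was therefore HAGLR. These sums were not tested.

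The HOXC cluster (chromosome 12, 53935328 to 54056030) contains the HOTAIR gene. Its active part ran from HOXC4 to HOXC9, and no gene of it passed the test. HOXC6, a gene active in the mammary gland, was at 2.02, 2.42 and 1.69 FPKM in shHOTAIR, against 3.11, 4.74 and 1.73 FPKM in shCtrl. The shCtrl libraries were far apart from each other, shCtrl 3 lying within the shHOTAIR range, and the log2 change of -0.40 had a 95% interval of -1.12 to 0.31 (limma adjusted p = 0.367). HOXC5 was at 1.47, 1.99 and 1.76 FPKM in shHOTAIR and 2.04, 1.94 and 1.82 FPKM in shCtrl (log2 change -0.10, interval -0.42 to 0.22). In both genes the groups overlapped. HOXC9, the group 9 gene of this cluster, was at 0.549, 0.676 and 0.886 FPKM in shHOTAIR and 0.692, 0.566 and 0.815 FPKM in shCtrl. HOXC8 was at 0.523, 0.912 and 0.921 FPKM in shHOTAIR and 0.622, 0.673 and 0.504 FPKM in shCtrl. The values of both genes ran through each other. HOXC4 was at 0.190 to 0.610 FPKM in shHOTAIR and 0.372 to 0.545 FPKM in shCtrl. A processed transcript that also bears the symbol HOXC5 was at 0.421, 0.137 and 0.574 FPKM in shHOTAIR, against 0.449, 1.14 and 1.18 FPKM in shCtrl. The groups of all these genes overlapped. Their values are uncertain where they share exons on 1 strand. HOXC5 shares 59.9% of its exon bases with the processed transcript and 33.9% with the read-through gene AC012531.2, and HOXC6 shares 13.7% with HOXC4.

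On the far side of HOXC, around HOTAIR, HOXC10, HOXC11, HOXC12, HOXC-AS3 and HOXC13-AS were listed at 0 in all 6 libraries, and HOXC13 was at 0.0209 FPKM in shHOTAIR 1 and 0 elsewhere. The antisense genes HOXC-AS1 and HOXC-AS2, near HOXC9, reached 0.383 and 0.576 FPKM at most, with overlapping groups. The 15 genes summed to 6.54 ± 0.759 FPKM in shHOTAIR and 8.25 ± 1.34 FPKM in shCtrl (SD, n = 3 each).

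The HOXA cluster (chromosome 7) was close to silent. Its 17 genes together summed to 0.330 ± 0.096 FPKM in shHOTAIR and 0.144 ± 0.137 FPKM in shCtrl (SD, n = 3 each; log2 ratio 1.20, but 2.18 without shCtrl 1 and 0.66 without shCtrl 2), and 7 of them were listed at 0 in all libraries, among them HOXA2, HOXA4, HOXA5, HOXA6, HOXA11 and HOXA-AS3. HOXA3, HOXA7, HOXA9, HOXA10 and HOXA11-AS were above 0 in shHOTAIR only, at no more than 0.0545 FPKM, and HOXA10-AS in 1 shCtrl library only. HOXA-AS2 was at 0.0545 to 0.258 FPKM in shHOTAIR, against 0.184, 0 and 0 FPKM in shCtrl. HOXA13, the most 5′ protein-coding gene and a regulator of limb and hindgut development, was the only one above 0 in all 6 libraries, and it was named after its values were seen. HOXA13 was at 0.120, 0.124 and 0.152 FPKM in shHOTAIR 1, 2 and 3, against 0.0217, 0.0117 and 0.0364 FPKM in shCtrl 1, 2 and 3. Each shHOTAIR library was above each shCtrl library. HOXA13 averaged 0.132 ± 0.0171 FPKM in shHOTAIR and 0.0233 ± 0.0124 FPKM in shCtrl (SD, n = 3 each), a ratio of 5.67 that rests on few fragments in shCtrl.

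In the fit of all 36141 genes above 0, HOXA13 passed with a log2 change of 0.15 on the log2(FPKM + 1) scale, which compresses such low values (limma adjusted p = 0.0166). Of the 32 members below the minimum it was the only one called in that fit, where 2.42% of all 20207 genes below the minimum passed. The call was lost without shCtrl 1 (adjusted p = 0.0536) and without shCtrl 2 (0.05), and the log2 change with a pseudocount of 0.1 was 0.91. Divided by the worth of 1 fragment, the values were 0.181, 0.209 and 0.211 in shHOTAIR and 0.0217, 0.0145 and 0.0434 in shCtrl, in relative units proportional to fragment number. HOTTIP, the RNA gene whose promoter window shares 171 bases with that of HOXA13, was at 0.00738, 0 and 0.00797 FPKM in shHOTAIR and listed at 0 in shCtrl. At the other end of the cluster HOTAIRM1 was listed at 0 in shHOTAIR and at 0.0788, 0 and 0.0661 FPKM in shCtrl, with overlapping groups (exact two-sided permutation p = 0.4).

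**Figure D3:**
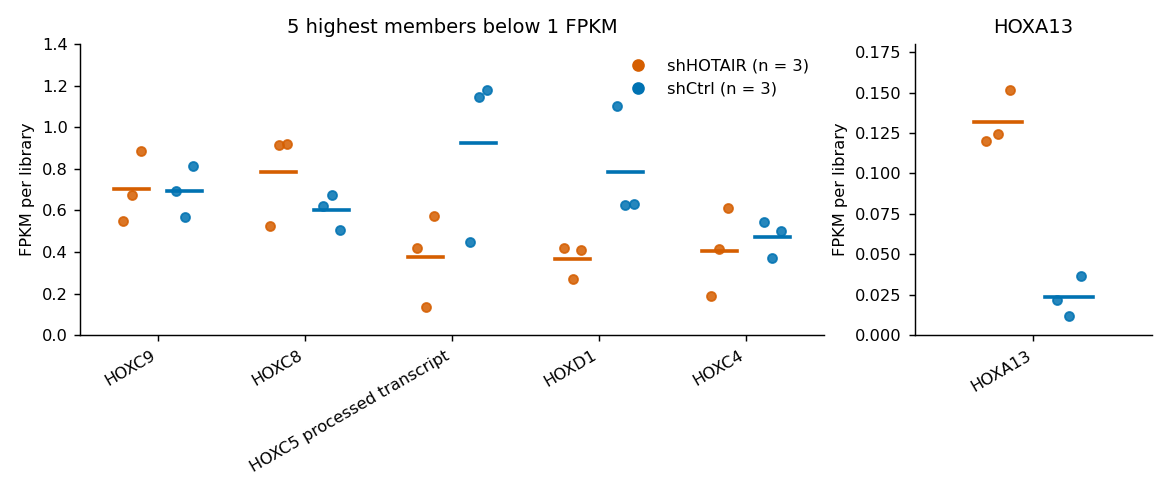
FPKM per library of the 5 HOX cluster genes with the highest mean below 1 FPKM (left) and of HOXA13 on its own scale (right), 6 genes in all, with a bar at the group mean, shHOTAIR in orange and shCtrl in blue, n = 3 each. Of the genes shown, HOXD1, lower in shHOTAIR, and HOXA13, higher in shHOTAIR, have groups that do not overlap.

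Across the 32 members above 0 but below a mean of 1 FPKM, the groups did not overlap in HOXD1 and HOXA13, against 13.6% of all genes in that range. Of these 32, 10 were above 0 in shHOTAIR libraries only, at up to 0.117 FPKM, and 2 in shCtrl libraries only, at up to 0.0788 FPKM. Among all 20207 genes in that range the shares were 16.3% and 11.9%. The number of the 58 genes above 0 was 32, 30 and 29 in shHOTAIR 1, 2 and 3 and 25, 22 and 28 in shCtrl 1, 2 and 3. The part of a possibly greater depth of the shHOTAIR libraries in these counts was not tested.

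**Figure D4:**
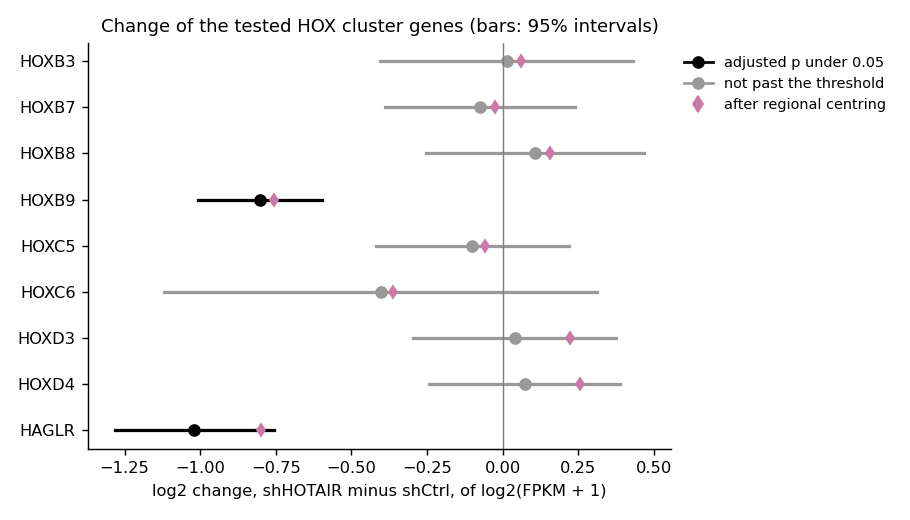
Log2 change of log2(FPKM + 1), shHOTAIR minus shCtrl, of the 9 tested HOX cluster genes with 95% intervals from limma; black marks an adjusted p under 0.05 and diamonds the log2 change after each gene was centred on its 50 nearest tested protein-coding neighbours. HOXB9 (-0.80) and HAGLR (-1.02) lie below 0 with and without centring, and the intervals of the other 7 genes include 0.

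The genes around the clusters were compared to show whether a whole region moved. Of all genes tested 23.8% passed, 11.5% higher and 12.4% lower in shHOTAIR, and the counts of neighbours are to be read beside these shares. Regional centring, used here as a second reading, subtracts from each gene the median of its 50 nearest tested protein-coding genes in each library. Of the 5 nearest protein-coding genes on each side of HOXB, 8 were tested and 2 fell, the adaptor gene SKAP1 and the sorting nexin SNX11. SKAP1 was at 0.472 ± 0.0948 FPKM in shHOTAIR and 1.59 ± 0.118 FPKM in shCtrl (SD, n = 3 each; log2 change -0.82, limma adjusted p = 0.0176), 98.3 kb beyond the HOXB1 end of the cluster, and met the minimum of 1 FPKM through shCtrl alone. The SNX11 call (log2 change -0.36) was lost without shHOTAIR 1, shHOTAIR 2 or any 1 shCtrl library (adjusted p up to 0.124), and regional centring ended it as well (0.17). The median log2 change of these 8 neighbours was -0.18. Around HOXD only NFE2L2 of 8 tested neighbours fell, by 0.21 on the log2 scale, a call that was kept without shCtrl 3 and lost without each of the other libraries (p up to 0.0876, adjusted). After centring on its region NFE2L2 had a log2 change of 0.02. MTX2 and LNPK, the nearest tested genes on each side, did not pass at -0.03 and 0.19, and the median over the 8 genes was -0.04. Over the wider region of 50 genes the level was lower in shHOTAIR by a log2 change of -0.18 around HOXD3 and HOXD4 and -0.22 around HAGLR. Centring on it left HAGLR at a log2 change of -0.80 (limma adjusted p = 0.0102).

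Around HOXC none of 8 neighbours passed (median -0.13). Around HOXA, 1 of 9 rose and 3 fell, where 11.5% of all genes tested rose and 12.4% fell. The RNA-binding protein gene HNRNPA2B1 (log2 change 0.32) rose on one side, a call that regional centring ended (adjusted p = 0.171), and CREB5 (-0.81), HIBADH (-0.32) and TAX1BP1 (-0.26) fell on the other side. The HIBADH and TAX1BP1 calls were lost without shHOTAIR 2 or any 1 shCtrl library, and that of TAX1BP1 also without shHOTAIR 3 (adjusted p up to 0.0703 and 0.101), while with regional centring their log2 changes were -0.63 and -0.48.

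**Figure D5:**
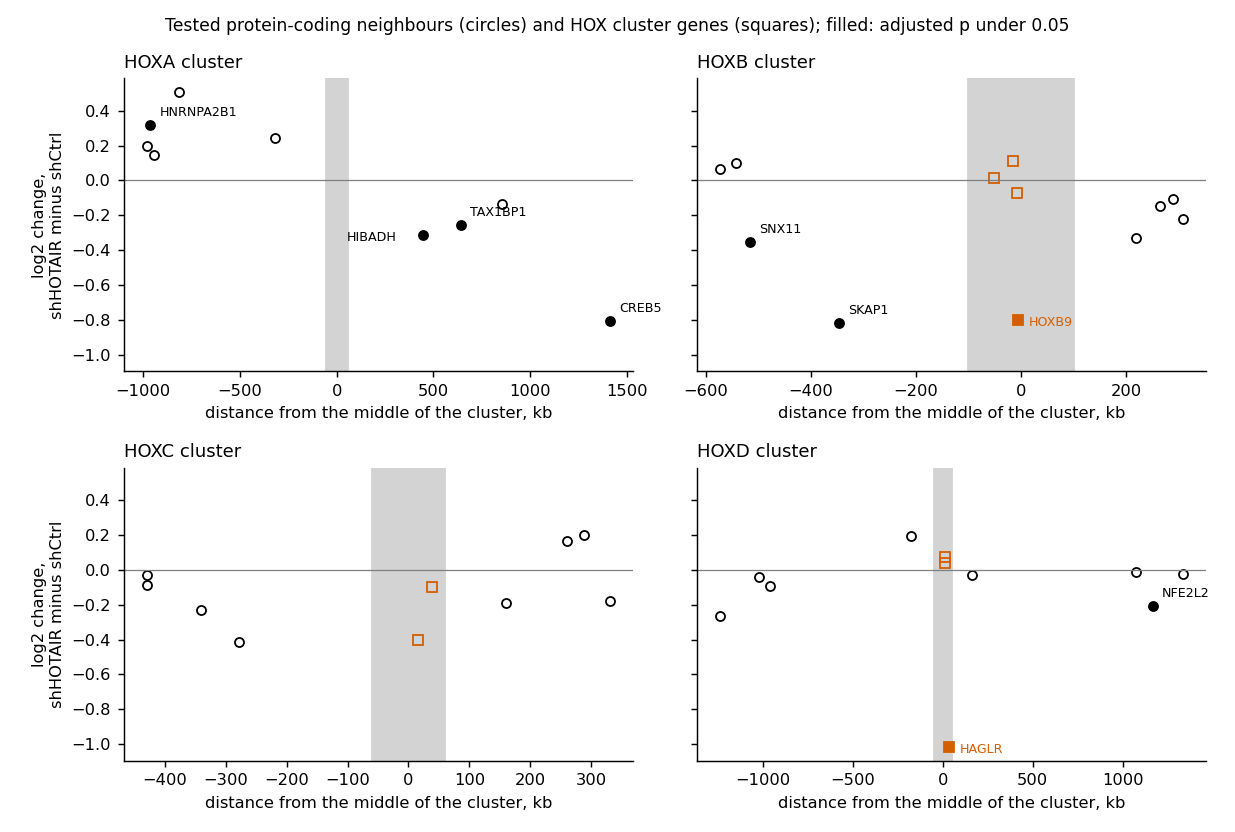
Log2 change, shHOTAIR minus shCtrl, of the tested protein-coding genes among the 5 nearest on each side of each HOX cluster (circles) and of the tested HOX cluster genes (orange squares), against the distance in kb from the middle of the cluster, which is shaded. Filled symbols passed an adjusted p of 0.05. HOXB9 and HAGLR lie below the other tested HOX genes of their clusters, and SKAP1, at -0.82, is the lowest of the HOXB neighbours shown.

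The partners and regulators of HOX genes were measured beside them. Of 12 genes for HOX cofactors, 10 were tested, 2 rose and 0 fell (median log2 change 0.15). GMNN, whose product geminin can bind HOX proteins, was one of them, with a log2 change of 0.21 (limma adjusted p = 0.0499), a call lost without any 1 library (0.0654 to 0.102) and with regional centring (0.148). MEIS1 (log2 change 0.25), MEIS2 (0.16), PBX2 (0.05) and PBX3 (0.14) did not pass.

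Of 15 trithorax and H3K27 demethylase genes, all tested, 1 rose and 0 fell (median -0.04). The one was PSIP1, which tethers the menin and MLL complex to chromatin (log2 change 0.41, limma adjusted p = 0.0193), and its call was lost without shHOTAIR 2, shHOTAIR 3, shCtrl 1 or shCtrl 2 (up to 0.0703), and regional centring gave 0.0649. The HOX activator KMT2A was at 20.1 ± 0.900 FPKM in shHOTAIR and 20.9 ± 3.40 FPKM in shCtrl (SD, n = 3 each) and did not pass. Of 18 genes of retinoic acid signalling and CDX factors, 8 were tested and 1, the receptor gene RARG, rose (log2 change 0.19, adjusted p = 0.0452), a call lost without any 1 library (0.084 to 0.124) and with regional centring (0.222). CDX1, CDX2 and CDX4 were listed at 0.

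Of 7 genes for CTCF and cohesin, which fold the clusters, STAG2 rose (log2 change 0.72) and SMC3 fell (-0.36). With regional centring both calls were lost, at log2 changes of -0.05 and -0.04 (limma adjusted p = 0.81 and 0.784). CTCF was at 28.1 ± 3.37 FPKM in shHOTAIR and 24.8 ± 2.30 FPKM in shCtrl and did not pass. The 12 homeobox relatives outside the clusters were all below the minimum and 9 of them were listed at 0. MNX1 was the highest of the 12, at 0.377 to 0.636 FPKM in shHOTAIR and 0.641 to 1.03 FPKM in shCtrl.

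Of 13 genes reported elsewhere as HOX targets, 10 were tested, 4 rose and 1 fell (median 0.14). EGFR was at 157 ± 7.96 FPKM in shHOTAIR and 76.7 ± 5.56 FPKM in shCtrl, and the urokinase gene PLAU at 230 ± 9.51 FPKM in shHOTAIR and 135 ± 9.59 FPKM in shCtrl (SD, n = 3 each; limma adjusted p = 0.0011 and 0.00191). ID1 rose as well (log2 change 1.47) and the cell cycle inhibitor CDKN1A fell (-0.69). TNC rose by a log2 change of 0.21, a call lost without shHOTAIR 2, shHOTAIR 3, shCtrl 1 or shCtrl 2 (adjusted p up to 0.0752), and centring gave 0.417. At 23.8% of all genes tested past the threshold, calls in these lists are read only as counts.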

How the data were processed

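Poly(A)-selected RNA of 3 shHOTAIR and 3 shCtrl libraries was sequenced, and the libraries were grouped by the labels' titles, which matched the column names. The authors deposited FPKM values per gene and library. The build GRCh38 and the tools DESeq and TopHat2 2.0.13 are named, per the submitters' processing notes, with no role or order. The sources used here give no annotation, strand setting or filter behind the FPKM. No read counts were recovered from the values. Some genes had values far below the worth of 1 fragment, and these counted as above 0.

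Of 65198 rows, 56807 matched GENCODE 29 by Ensembl identifier, which gave symbols, positions and exons. No scaling was added, and the fits used log2(FPKM + 1). The 15934 genes averaging 1 FPKM or more were fitted in R 4.3.3 by limma 3.58.1 (moderated test, intensity trend, no block), with Benjamini-Hochberg adjustment over all of them and a threshold of 0.05. Single values were compared by exact two-sided permutation. The code was tested on simulated data. Figures and tables used Python 3.11.15, pandas 2.3.3 and matplotlib 3.10.9.

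Alternatives were pseudocounts of 0.1 and 0.01, other minimum levels, other scalings, limma without a trend or with robust eBayes, a replicate block, centring on 50 neighbouring genes, and each library left out. Fits without a minimum level for HOXA13 and HOXD1 with other settings were added after seeing the data.

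The members and lists were chosen with earlier results of these data known. Genes were named by a rule: all members with a mean of at least 1 FPKM, the 5 named RNA genes, the 5 highest members below 1 FPKM and those at 0.1 FPKM or more whose groups did not overlap, and of each other list up to 4 called genes with the smallest p. Others, among them HOXA13, AC009336.3, TNC and genes given as examples that did not pass, were named after their values were seen. Single values of a few listed genes are not reported here.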

Additional observations from a re-analysis of the deposited data

How the results depend on the processing

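HOXB9 and HAGLR kept their direction and their call under all 16 alternatives each, with log2 changes of -0.86 to -0.74 and -1.09 to -0.80 and limma adjusted p of 0.0018 to 0.0326 and 0.0018 to 0.0306. The count of HOX cluster genes past the threshold was 2 in every alternative but the one with no minimum level, which added HOXA13 and gave 3. The other 7 tested members passed under none of the alternatives. Of these, HOXB3 changed sign with quantile normalization (-0.027) and ranged from -0.133 to 0.123 with 1 library left out, HOXD3 changed sign with quantile normalization (-0.01), and HOXD4 ranged from -0.007 to 0.177 with 1 library left out. Over all genes tested, 2172 passed with regional centring and 2470 to 3159 with 1 library left out, against 3797. The lists of partners, regulators, targets and neighbours held 18 called genes, and 10 to 16 with 1 library left out. With regional centring 13 passed, among them genes without a call in the main fit, so centring added calls as well as ending them. The log2 ratio of the summed FPKM with protein-coding genes alone was 2.95 for HOXA, against 1.20 for all its genes, and -0.04 for HOXD, against -0.82, where HAGLR is left out by construction. The protein-coding HOXA sum was mostly HOXA13, at 0.132 of 0.180 FPKM in shHOTAIR, and rests on few fragments in shCtrl. With 1 library left out the HOXA ratio over all its genes ran from 0.66 (without shCtrl 2) to 2.18 (without shCtrl 1), and the HOXC ratio of -0.33 was -0.215 without shCtrl 2.

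Equal replicate numbers did not pair the samples: the deviations of same-numbered libraries from their group means correlated at -0.141, -0.069 and -0.0506. With the replicate block 1740 genes passed, 2 of them HOX cluster genes (HOXB9 with an adjusted p of 0.0326 and HAGLR with 0.0306), and 8 genes of the lists, and HOXA13 in the fit without a minimum level had an adjusted p of 0.101. No library correlated best with its own number, so nothing is read from the block. At this depth HOTAIR, HOTTIP, HOTAIRM1 and nearly all HOXA genes rest on few fragments.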

Other observations

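Several genes inside the HOX clusters that carry other names were listed at or near 0, AC009336.3 beside HOXD1 being above 1 FPKM. PRAC1 and PRAC2, prostate and colon genes between HOXB9 and HOXB13, were listed at 0 in all 6 libraries, as was the HOXA read-through gene AC004080.3. Of the embedded microRNA genes in the table, MIR196A1, MIR196A2, MIR10B and MIR3185 were listed at 0 throughout, and MIR615, in HOXC5, was at 21.9 FPKM in shCtrl 1 and 0 elsewhere. Poly(A)-selected libraries hold little mature microRNA, so these values do not measure the microRNAs. The HOXC read-through gene AC012531.2 was at 0.300 FPKM in shHOTAIR 1 and did not exceed 0.0178 FPKM in any other library. The ratio of HOXB9 to HAGLR, the most abundant HOX cluster genes, which lie on different chromosomes, was 0.881 to 1.30 in shHOTAIR and 0.820 to 0.988 in shCtrl (exact two-sided permutation p = 0.2).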
